A study of Mus musculus with 9 samples.

Results

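Pax6, Gap43, Ncan, Map2, Msi1, Nes, Ncam1 and Tubb3, 8 genes that are commonly used to follow the neural lineage, were examined in 9 RNA-seq libraries of mouse embryonic stem (ES) cells. The 8 are named rows among the 40213 gene symbols of the count files, and all 8 were found and had enough counts to be tested. They were picked with results on these same libraries already known, so every difference between lines in these 8 genes is given as a description, with no test. J1, a widely used ES cell line, was the control, with 3 libraries. The labels describe 2 stable Niwa lines, an OCT4 line and an EWS-OCT4 line, with 3 libraries each. One carries OCT4 and the other EWS-OCT4, in which OCT4 is joined to EWS, a protein that binds RNA. Both received 1 µg/ml doxycycline to lower their endogenous OCT4. All lines were grown with LIF, a cytokine that sustains self-renewal, the property in which, by the study's title, the fusion stands in for OCT4. The labels do not say whether J1 also received doxycycline, whether the numbered libraries are separate cultures, or whether each stable line is 1 clone. Host line and construct therefore cannot be told apart in a comparison with J1, and the spread between replicates may be technical.

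In the embryo, neural tissue forms from the epiblast when signals that favour other lineages are held back, and ES cells in LIF are normally kept from that step. PAX6 is a transcription factor of the neural tube and the eye, and NES (nestin, an intermediate filament protein) and MSI1 (Musashi, an RNA-binding protein that represses translation) mark neural progenitors. GAP43 is a growth cone protein, TUBB3 a neuronal beta-tubulin and MAP2 a microtubule-binding protein of dendrites. NCAM1 is an adhesion molecule of the immunoglobulin superfamily and NCAN (neurocan) a chondroitin sulfate proteoglycan of brain matrix. Several of these genes are also active outside neural tissue, Nes in muscle progenitors, Pax6 in lens and pancreas, and Ncam1 in muscle.

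Sequence upstream of 4 of the genes is shown so that each line is represented by genes that were highest in it: Pax6 for the fusion, Map2 for the OCT4 line, and Ncan and Tubb3, which stood in the same order, for J1. The RefSeq promoter table, on build GRCm38.p6, held 5 of the 8 genes. Gap43, Msi1 and Ncam1 were not matched, and Nes, highest in the OCT4 line as Map2 was, is not shown. Pax6 had a second window, from chr2:105682213, which began within an annotated exon, so 0 of its bases were kept. Which Pax6 start was used in these lines was not tested. Each sequence starts 250 bases before a RefSeq start, is written 5′ to 3′ on the gene's strand and stops where a GENCODE M21 exon begins. The intervals are chr2:105668646-105668895 (plus strand) for Pax6, chr1:66175079-66175272 (plus) for Map2, chr8:70120874-70121094 (minus) for Ncan and chr8:123411303-123411423 (plus) for Tubb3. Capitals mark matches, on either strand, to the octamer ATGCAAAT bound by POU factors, the SOX motif ACAATG, the left and right parts TTCAGCACC and GGACAGC of the RE1 element bound by REST, the E-box CAGCTG, the TATA element TATAA, the GC box GGGCGG, the CCAAT box CCAAT and the cAMP response element (CRE) TGACGTCA.
Pax6: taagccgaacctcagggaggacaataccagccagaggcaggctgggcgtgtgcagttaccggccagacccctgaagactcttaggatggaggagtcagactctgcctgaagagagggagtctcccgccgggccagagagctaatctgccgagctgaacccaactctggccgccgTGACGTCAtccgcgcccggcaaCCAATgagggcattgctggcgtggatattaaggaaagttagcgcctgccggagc
Map2: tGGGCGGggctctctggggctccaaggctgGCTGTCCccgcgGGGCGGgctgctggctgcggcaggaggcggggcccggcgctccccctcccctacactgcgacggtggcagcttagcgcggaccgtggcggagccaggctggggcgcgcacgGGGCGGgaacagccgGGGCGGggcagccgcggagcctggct
Ncan: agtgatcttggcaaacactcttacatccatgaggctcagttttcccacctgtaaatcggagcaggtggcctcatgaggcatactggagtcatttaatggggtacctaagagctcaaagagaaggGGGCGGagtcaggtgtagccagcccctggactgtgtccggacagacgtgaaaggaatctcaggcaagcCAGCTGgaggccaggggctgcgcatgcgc
Tubb3: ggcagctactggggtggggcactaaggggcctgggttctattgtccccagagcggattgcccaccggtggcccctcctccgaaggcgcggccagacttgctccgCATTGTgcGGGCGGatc
The Pax6 stretch held a CRE beginning 76 bases before the start, found in 1.55% of the 32851 promoter windows of that length, and a CCAAT box, found in 33.8%. The Map2 stretch was 79.4% G and C and held 4 GC boxes (at least 1 in 23.6% of windows of its length) and the right part of RE1 (4.14%). The Ncan stretch held an E-box (11.4%) and a GC box (28.7%). The Tubb3 stretch held a SOX motif (5.54%) and a GC box (12.9%). None of the 4 stretches held the octamer, which occurred in 0.755% to 1.6% of windows of these lengths. A match is a description of letters, and its absence says only that these letters are not in this window.

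Library totals ran from 21149358 to 24786305 counts, and 16562 genes passed the filter on low counts. Values below are CPM, counts scaled by library size and TMM factor as edgeR's cpm function does, unless stated. Pou5f1, the mouse gene for OCT4, had 522, 639 and 545 CPM in the 3 J1 libraries, 165, 168 and 162 with OCT4 and 25.6, 29.3 and 25.6 with EWS-OCT4. No group overlapped another, and p was 0.1 for every pair of lines (exact permutation, two-sided), which is as small as 3 against 3 libraries can give. Whether reads of the introduced sequences were counted under Pou5f1 is not given. No library repeated another: between replicates the chi-square was 3.21 to 29.2 times its degrees of freedom. Mitochondrially encoded genes took 12.5% to 15.7% of counts in J1, 10.1% to 12.5% in the OCT4 line and 16.3% to 17.1% in the EWS-OCT4 line. The single gene Gm26917 took 0.841% to 1.12% of counts in J1, 1.64% to 1.84% with the fusion and 3.71% to 5.81% in the OCT4 line, whose libraries stood apart in this. With the mitochondrial genes and Gm26917 left out before scaling, every log2 ratio of the 8 genes between lines kept its sign and moved by less than the spread between replicates, Pax6 to 4.54 and Nes to -0.15 in EWS-OCT4 versus OCT4.

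The 8 genes did not move as a block. In each comparison all 8 had groups without overlap, as had 72.9% of all tested genes for EWS-OCT4 versus OCT4, 65.7% for EWS-OCT4 versus J1 and 68.4% for OCT4 versus J1. Taking the EWS-OCT4 line against the OCT4 line, 5 lay wholly above and 3 wholly below, against 35.3% and 37.6% of all tested genes. Of these, 4 of the 5 and 2 of the 3 differed by at least 2-fold (background 8.51% and 15.7%). Against J1, the EWS-OCT4 line had 3 above and 5 below (background 32.6% and 33.1%), with 2 and 2 past 2-fold (8.17% and 12.4%). The OCT4 line had 4 above and 4 below J1 (35.1% and 33.3%), with 3 and 4 past 2-fold (15.0% and 11.4%). The median log2 fold change of the 8 was 1.02 for EWS-OCT4 versus OCT4, -0.53 for EWS-OCT4 versus J1 and -0.15 for OCT4 versus J1, where the medians of all tested genes were -0.035, 0.0026 and 0.0062. Since the genes were picked with these contrasts known, nothing is read from the counts or the medians. In bulk RNA, a higher share of cells that express a gene and more RNA per cell cannot be told apart. The plot of CPM by library shows the 8 genes in 5 different orders of the 3 lines.

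**Figure D1:**
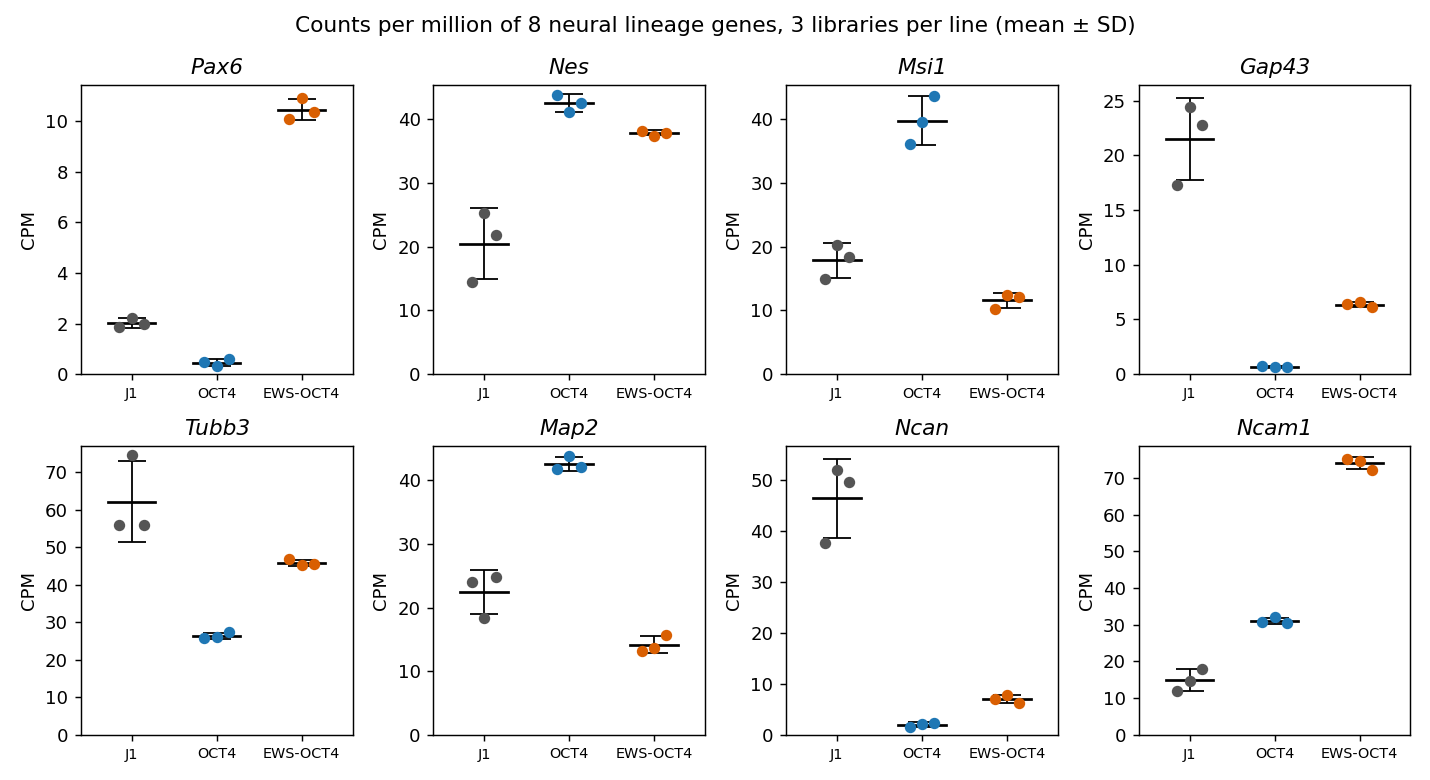
CPM of each gene (vertical axis, starting at 0) in each library, as points, for J1, OCT4 and EWS-OCT4, with the mean and SD of 3 libraries as bars. Pax6 and Ncam1 are highest in the EWS-OCT4 line, Map2, Msi1 and Nes in the OCT4 line, and Gap43, Ncan and Tubb3 in J1; no 2 groups overlap in any panel.

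Pax6, the transcription factor of the set, was low in J1 and lowest in the OCT4 line. It had 1.85, 2.23 and 1.97 CPM in J1, 0.462, 0.316 and 0.588 with OCT4 and 10.1, 10.9 and 10.4 with EWS-OCT4. Every EWS-OCT4 library lay above every J1 library, and every OCT4 library below. The means were 2.02 ± 0.197, 0.455 ± 0.136 and 10.5 ± 0.414 (SD, n = 3), so that the EWS-OCT4 line stood 23.0-fold above the OCT4 line and 5.18-fold above J1. The OCT4 value rests on 31 counts over its 3 libraries, against 708 in the EWS-OCT4 line. The OCT4 line had 22.6% of the J1 level.

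The progenitor genes Msi1 and Nes were both highest in the OCT4 line but differed in the EWS-OCT4 line. Msi1 had 14.9, 20.2 and 18.4 CPM in J1, 36.2, 39.5 and 43.7 with OCT4 and 10.2, 12.4 and 12.1 with EWS-OCT4. The OCT4 line was 2.23-fold above J1, and the EWS-OCT4 line was at 65.0% of J1, with a gap of 2.48 CPM between its highest library and the lowest of J1. Nes had 14.4, 25.3 and 21.8 CPM in J1, 43.9, 41.1 and 42.6 with OCT4 and 38.2, 37.4 and 37.9 with EWS-OCT4. Both stable lines lay above all J1 libraries, 2.08-fold and 1.85-fold by their means. Between them Nes differed little: the EWS-OCT4 mean was 89.1% of the OCT4 mean, and the gap between the groups was 2.84 CPM. J1 had the widest spread, with a coefficient of variation of 27.2% for Nes.

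Among the genes of the neuronal cytoskeleton and growth cone, Gap43 and Tubb3 were highest in J1 and Map2 in the OCT4 line. Gap43 had 17.3, 24.4 and 22.8 CPM in J1, 0.739, 0.632 and 0.630 with OCT4 and 6.39, 6.58 and 6.11 with EWS-OCT4. The OCT4 line thus held 3.11% of the J1 level of this growth cone gene, a 32.2-fold difference, and the EWS-OCT4 line 29.6%. The fusion line stood 9.53-fold above the OCT4 line. Tubb3 kept the same order over a narrower range, with 56.0, 74.6 and 55.8 CPM in J1, 25.9, 26.1 and 27.3 with OCT4 and 46.8, 45.2 and 45.6 with EWS-OCT4. The OCT4 line was at 42.5% and the EWS-OCT4 line at 73.8% of J1, with no overlap. Map2 had 24.0, 18.4 and 24.8 CPM in J1, 41.8, 43.9 and 42.1 with OCT4 and 13.1, 13.6 and 15.7 with EWS-OCT4. This dendrite gene was 1.90-fold above J1 with OCT4 and at 63.2% of J1 with EWS-OCT4, a 3.01-fold difference between the stable lines.

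The genes of cell surface and matrix went opposite ways against J1. Ncan had 37.6, 52.0 and 49.6 CPM in J1, 1.48, 2.21 and 2.35 with OCT4 and 7.07, 7.75 and 6.32 with EWS-OCT4. Neurocan transcripts were thus at 4.34% of J1 with OCT4 and at 15.2% with EWS-OCT4, which stood 3.50-fold above the OCT4 line. Ncam1 had 12.1, 14.8 and 18.0 CPM in J1, 30.7, 32.0 and 30.5 with OCT4 and 75.2, 74.7 and 72.3 with EWS-OCT4. Both stable lines were above J1 for this adhesion molecule, 2.08-fold with OCT4 and 4.95-fold with EWS-OCT4. Ncan and Tubb3 both lie on chromosome 8, whose 585 genes of at least 5 CPM had a median log2 fold change against J1 of -0.49 with OCT4 and -0.41 with EWS-OCT4. Over all 10721 such genes these medians were -0.011 and 0.051, and the part of the chromosome shift in the values of Ncan and Tubb3 was not tested. Chromosome 11, which holds none of the 8 genes, had medians of -0.49 and -0.46 over 872 genes. List genes further below are given without allowance for such shifts. Ncan stood at a log2 ratio of -4.53 and -2.72, and Tubb3 at -1.23 and -0.44, so Tubb3 in the EWS-OCT4 line lay close to its chromosome's median.

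Set side by side, with the J1 libraries shared by both comparisons, 3 genes departed from J1 in opposite directions in the stable lines. The log2 ratio of mean CPM against J1 was 2.37 in the EWS-OCT4 line and -2.15 in the OCT4 line for Pax6, -0.66 and 0.93 for Map2, and -0.62 and 1.16 for Msi1. Gap43, Ncan and Tubb3 were below J1 in both lines, each further below in the OCT4 line, and Nes and Ncam1 were above J1 in both. The ratios of the 8 genes in both stable lines are plotted against each other. Map2 and Msi1 were the closest pair of the 8, with a root mean square distance of 0.24 between their centred log2 CPM over the 9 libraries, followed by Gap43 and Ncan at 0.60 and Nes and Ncam1 at 0.68.

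**Figure D2:**
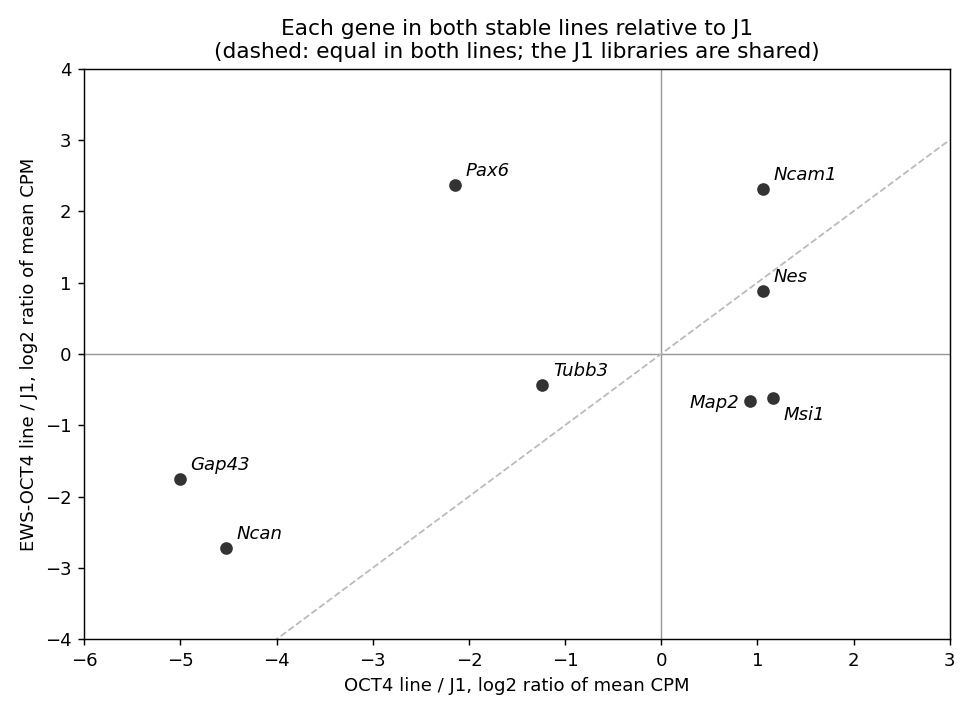
Log2 ratio of mean CPM against J1 for each of the 8 genes, in the OCT4 line (horizontal axis) and the EWS-OCT4 line (vertical axis); each point is 1 gene, from 3 libraries per line, and the dashed line marks equal ratios. Pax6 lies alone at upper left (-2.15 and 2.37), Map2 and Msi1 lie at lower right, and Gap43 and Ncan lie furthest to the left.

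The spread between replicates was larger in J1 than in the stable lines for most of the 8 genes. The coefficient of variation ran from 9.76% to 27.2% in J1 (median 17.0%), from 2.67% to 29.9% in the OCT4 line (median 6.30%) and from 1.04% to 10.2% in the EWS-OCT4 line (median 3.85%). J1 replicate 1 held the lowest J1 value for 6 of the 8 genes, and J1 replicate 2 the highest for 6. The 29.9% of the OCT4 line is Pax6, with its 31 counts. Summed over the 8 genes, J1 had 178 to 232 CPM, the OCT4 line 181 to 190 and the EWS-OCT4 line 206 to 209. The summed levels of both stable lines thus lay within the range of J1, while their single genes did not.

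The genes whose values over the 9 libraries lay nearest to each of the 8 were found by the same distance. Astn1, which encodes the neuronal migration protein astrotactin, was nearest to Pax6 (distance 0.34), with 1.67, 0.177 and 6.91 CPM in J1, OCT4 and EWS-OCT4, followed by Pdgfc (0.39), a growth factor gene with 4.08, 1.70 and 23.4 CPM, and Gm34894 (0.50). The genes nearest to Gap43 were Crmp1 (0.39), which encodes a collapsin response mediator of growth cones, Ina (0.40), the neuronal intermediate filament alpha-internexin, and Jakmip2 (0.42). Ina had 41.9, 2.39 and 19.7 CPM in J1, OCT4 and EWS-OCT4. Ncan was matched most closely by Trh (0.15), which encodes thyrotropin-releasing hormone, with 276, 12.6 and 50.4 CPM, then by the BMP receptor gene Bmpr1b (0.26) and by Bcl6b (0.41). For Ncam1 they were the adhesion gene Bcam (0.13), the glial transcription factor gene Nfib (0.13) and the connexin gene Gja1 (0.22). Nfib had 9.34, 21.6 and 42.6 CPM.

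For the genes with smaller ranges the nearest genes were at shorter distances and of mixed roles. They were Pnkd (0.052), Adamtsl4 (0.070) and the casein kinase gene Csnk1e (0.092) for Msi1, and Gm3500 (0.12), Bend4 (0.12) and Gm35515 (0.12) for Map2. Zfp839 (0.083), Lemd2 (0.088) and Trim8 (0.092) were nearest to Nes, and Nhp2 (0.081), Dmtn (0.093) and Usp36 (0.095) to Tubb3. None of these 12 is in the neural lists used below, whereas Crmp1, Ina, Nfib and Gja1 are. The colour map of these genes places each of the 8 above its 3 nearest.

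**Figure D3:**
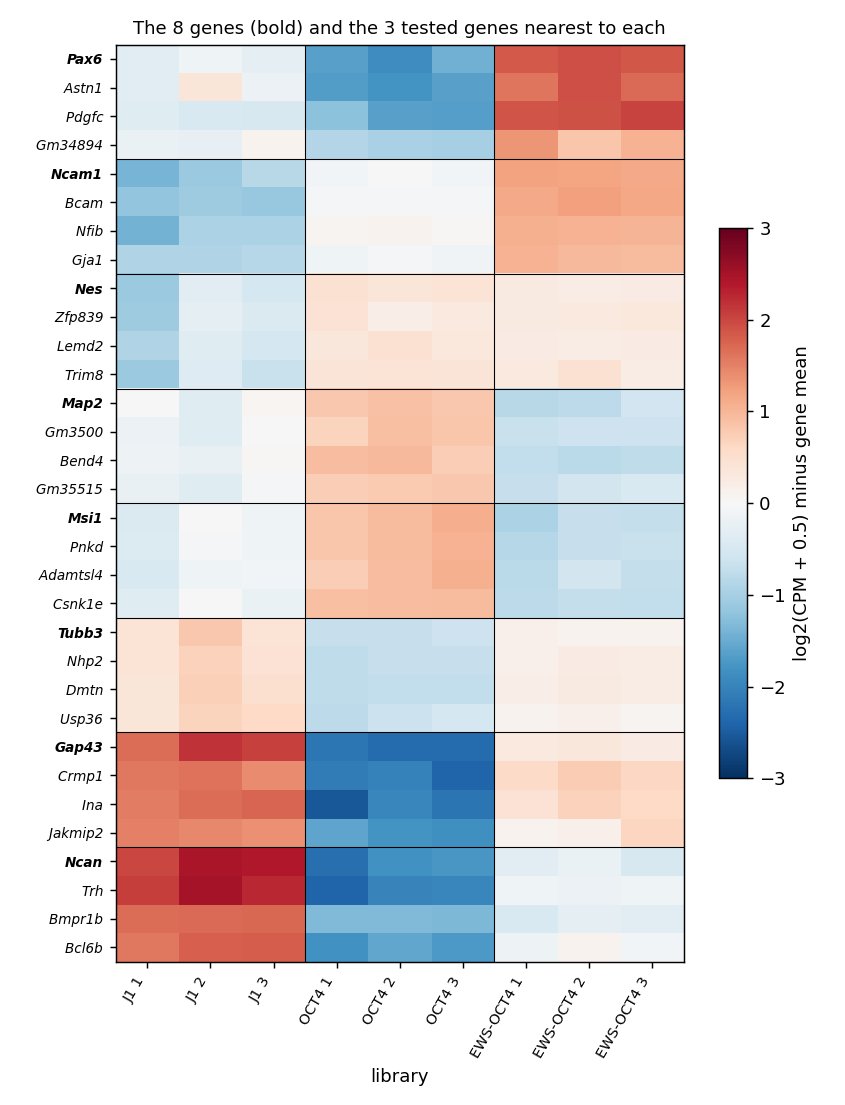
Log2(CPM + 0.5) minus each gene's mean (colour, red above and blue below) for the 8 genes, in bold, and the 3 tested genes nearest to each, in rows, over the 9 libraries in columns. Within each block the 4 rows change colour at the same line borders, from blue to red between the OCT4 and EWS-OCT4 libraries for Pax6 and its nearest genes and from red to blue for Map2 and Msi1. The nearest genes were picked on the values of these libraries, so this likeness follows from the choice.

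To place the 8 genes among other genes of neural tissue, 13 lists with 249 further genes were examined. The filter on low counts kept 185 of them, and a gene was called at an adjusted p under 0.05 in edgeR's quasi-likelihood test. Of the 185, 64 were higher and 81 lower with EWS-OCT4 than in the OCT4 line (34.6% and 43.8%), where 31.9% and 34.6% of all tested genes were. Relative to J1, the EWS-OCT4 line had 61 higher and 70 lower (33.0% and 37.8%, background 30.3% and 31.6%), and the OCT4 line 76 and 67 (41.1% and 36.2%, background 34.3% and 32.7%). Calls in either direction made up 66.5%, 61.9% and 67.0% of all tested genes, in the order in which the comparisons are given here. The median log2 fold changes of the 185 genes were -0.25, -0.027 and 0.044 in that order, beside -0.035, 0.0026 and 0.0062 over all tested genes. As with the 8, neural genes did not move as a block, and the plot of calls by list shows lists that leaned one way and lists that were divided. All tested genes were divided in each comparison too, and their shares given here are the background for each list below. List genes given below as risen or fallen passed that edgeR test with adjusted p of at most 5.93e-05 in EWS-OCT4 versus OCT4. The bound was 0.00846 in EWS-OCT4 versus J1 (Tubb6 apart, at 0.0400) and 2.94e-05 in OCT4 versus J1. Their values are log2 fold changes with their SE. These bounds do not cover the cell type markers further below, called at 0.05 by the same edgeR test with adjusted p up to 0.0460.

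**Figure D4:**
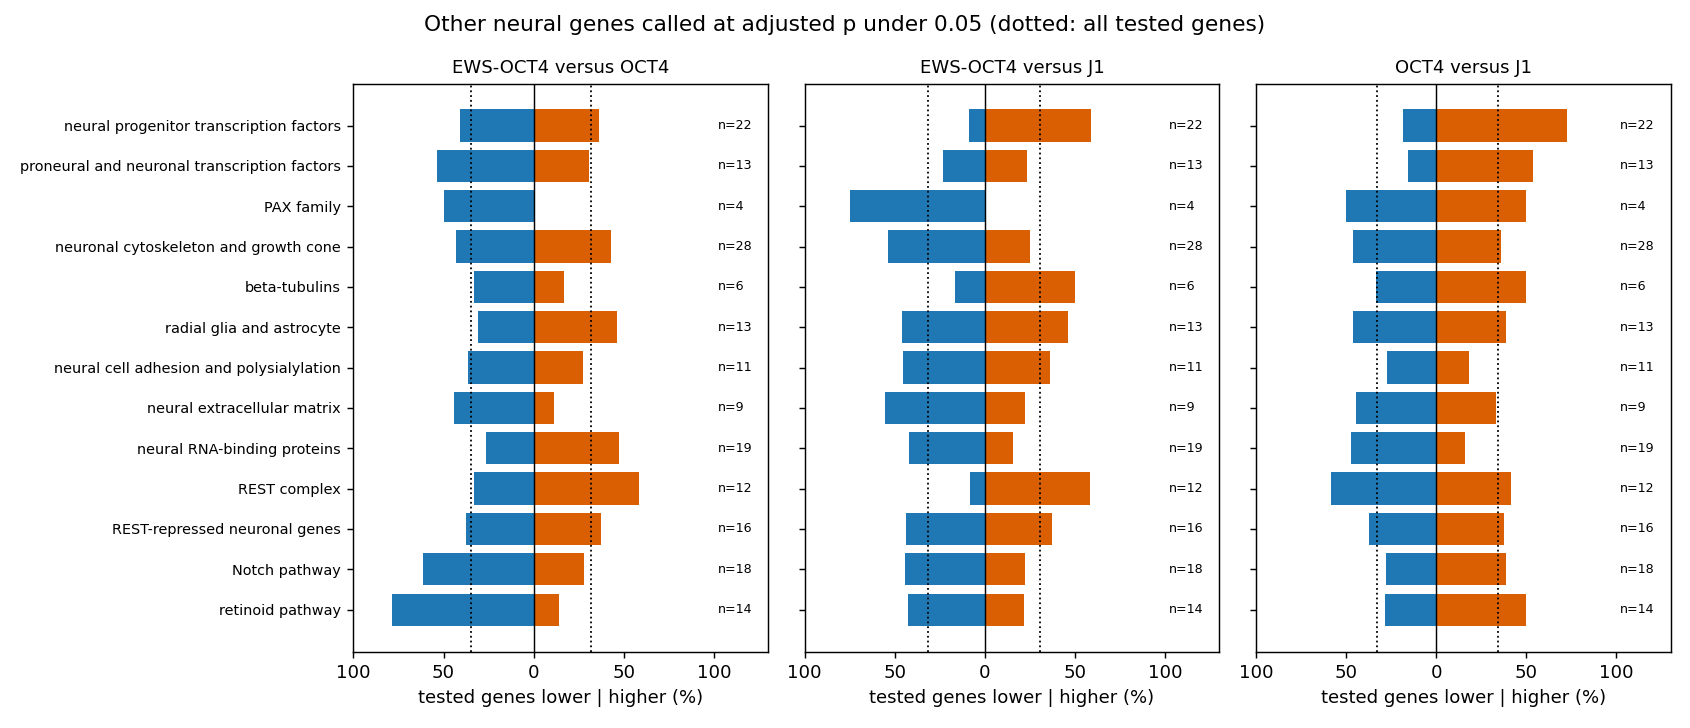
Share of the tested genes of each neural list (rows, with the number tested) that were called higher (orange, to the right) or lower (blue, to the left) in each of the 3 comparisons, in percent; dotted lines mark the same shares over all tested genes. Progenitor transcription factors lean to the right in both comparisons with J1, and retinoid genes to the left in EWS-OCT4 versus OCT4.

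Transcription factor genes of neural progenitors, the company of Pax6, were mostly higher than J1 in both stable lines. Of 22 tested, the EWS-OCT4 line had 13 higher and 2 lower and the OCT4 line 16 and 4, with median log2 fold changes of 0.83 and 1.62. Many of these genes are low: with a minimum of 5 CPM in 3 libraries, 6 and 5 were higher. Sox21, a SOX factor of neural progenitors, rose against J1 by 4.96 (SE 0.112) in the EWS-OCT4 line and by 3.21 (SE 0.117) in the OCT4 line, where Zic2 fell by 2.02 (SE 0.0989). Between the stable lines 8 were higher and 9 lower with the fusion: En1, a midbrain homeobox gene, by 3.28 (SE 0.234) upward, the forebrain gene Hesx1 by -3.28 (SE 0.156) and Irx3 by -2.30 (SE 0.265) downward. With the 5 CPM minimum these counts were 7 and 2. Hesx1 was also lower than in J1 there (-1.40, SE 0.174). Sox1, a marker of early neuroectoderm that was picked out here after its values were seen, had 0.825 ± 0.197 CPM in J1, 4.94 ± 0.586 with OCT4 and 2.01 ± 0.363 with EWS-OCT4 (SD, n = 3).

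The other PAX genes did not share the order of Pax6 (EWS-OCT4 above J1 above OCT4) in their mean CPM. Pax2 was highest in the OCT4 line, at 2.58 ± 0.278 CPM against 0.377 ± 0.0913 in J1 and 0.662 ± 0.259 with EWS-OCT4 (SD, n = 3). It rose by 2.75 (SE 0.308) in the OCT4 line against J1 and fell by 1.97 (SE 0.285) between the OCT4 and the EWS-OCT4 line. Pax8 had 4.19 ± 0.537 CPM in J1, 1.35 ± 0.212 with OCT4 and 0.889 ± 0.269 with EWS-OCT4, falling by 1.62 (SE 0.222) and 2.23 (SE 0.237). Pax5 had 1.34, 0.462 and 0.388 CPM, and Pax7 0.308, 0.836 and 0.073. Of these 4 tested genes 2 were lower in EWS-OCT4 versus OCT4 (4 without EWS-OCT4 replicate 2), 3 lower with EWS-OCT4 than in J1, and 2 higher and 2 lower in OCT4 versus J1. Pax1, Pax3, Pax4 and Pax9 had too few counts to be tested, with 30 counts over 3 libraries at most and with Pax4 listed at 0 in all 9 libraries.

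Proneural and neuronal transcription factor genes were scarce, with 13 of 32 tested. Neurog2, a factor that starts neuronal differentiation, had 2 counts over the 9 libraries. Of the 13, 4 were higher and 7 lower in EWS-OCT4 versus OCT4. Neurod1 (0.85, SE 0.121) and Pou4f1 (0.85, SE 0.120) rose, and Prox1 (-3.63, SE 0.204) and Onecut2 (-2.22, SE 0.132) fell. Against J1, 7 were higher and 2 lower with OCT4 and 3 and 3 with EWS-OCT4. Onecut2 rose in both, by 3.62 (SE 0.150) and 1.40 (SE 0.170), and Ebf1 fell in both, by 2.34 (SE 0.261) and 0.73 (SE 0.220). The smaller Ebf1 fall was lost without EWS-OCT4 replicate 2 (edgeR, adjusted p = 0.0543).

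Genes of the neuronal cytoskeleton and growth cone, beside Gap43 and Map2, were divided. In EWS-OCT4 versus OCT4, 12 of 28 were higher and 12 lower (42.9% each, beside 31.9% and 34.6% of all tested genes). Crmp1 (3.52, SE 0.179) and Ina (3.04, SE 0.139), the genes nearest to Gap43, rose. Nearness was measured over these same libraries, so the direction they share with Gap43 follows from it. The microtubule-associated Map7 (-1.24, SE 0.0726) and Map6 (-1.19, SE 0.114) fell, as Map2 lay lower. Against J1, 7 were higher and 15 lower with EWS-OCT4 and 10 and 13 in the OCT4 line. Kif1a, a motor of axonal transport, fell by 3.51 (SE 0.0839) in the EWS-OCT4 line, where Marcksl1 rose by 1.06 (SE 0.0905). In the OCT4 line Mapt, which encodes tau, rose by 1.53 (SE 0.118), and Crmp1 fell by 4.45 (SE 0.169). Dcx, a marker of migrating young neurons, was listed at 0 in all 9 libraries.

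The other beta-tubulins did not follow Tubb3 as a family. Tubb5, the tubulin of dividing cells in general, had 1218 ± 66.3, 1182 ± 62.7 and 1170 ± 29.4 CPM in J1, OCT4 and EWS-OCT4 (SD, n = 3) and did not pass the edgeR test in any comparison, with adjusted p = 0.494 to 0.866. Tubb4a fell as Tubb3 lay lower, by 2.00 (SE 0.167) with OCT4 and 1.91 (SE 0.165) with EWS-OCT4 against J1. Tubb2a and Tubb2b rose in both lines against J1, Tubb2a by 1.22 (SE 0.0746) and 0.58 (SE 0.0754), Tubb2b by 0.74 (SE 0.0832) and 0.61 (SE 0.0831). Tubb6 rose by 0.59 (SE 0.07) in the OCT4 line, and its difference of 0.17 (SE 0.0703) in the EWS-OCT4 line was close to the threshold (edgeR, adjusted p = 0.0400). The number of beta-tubulins higher in EWS-OCT4 versus J1 was 3, and 2 without J1 replicate 3, EWS-OCT4 replicate 2 or EWS-OCT4 replicate 3. Between the stable lines Tubb4b was higher with the fusion (0.54, SE 0.0689) and Tubb2a (-0.64, SE 0.0728) and Tubb6 (-0.42, SE 0.0698) lower, and Tubb1 was too low to test. Tubb2a, Tubb2b and Tubb4b share 56.4%, 43.1% and 48.6% of their 31-base words with other GENCODE M21 genes, so their counts are uncertain. For Tubb3 that share was 3.21%, and for the other 7 genes at most 0.966%.

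Genes of radial glia and astrocytes, the cells in which nestin is also found, were divided too. Of 13 tested, 6 were higher and 4 lower in EWS-OCT4 versus OCT4 (46.2% and 30.8%, beside 31.9% and 34.6% of all tested genes). The counts were 6 and 6 when the fusion line was set against J1, and 5 and 6 in OCT4 versus J1. Vim, which encodes vimentin, the filament partner of nestin, stood at 57.8 ± 2.35 CPM in J1, 249 ± 13.9 with OCT4 and 216 ± 8.19 with EWS-OCT4 (SD, n = 3), in the same order as Nes, and rose by 2.10 (SE 0.0706) in the OCT4 line against J1. Glul (1.49, SE 0.0659) and Gja1 (1.10, SE 0.0633) were higher with the fusion than in the OCT4 line, and Aldh1l1 (-2.08, SE 0.127) and Synm (-1.11, SE 0.116), a further intermediate filament gene, lower. Nfib rose by 2.19 (SE 0.104) in the EWS-OCT4 line against J1. Gfap, the astrocyte filament gene, fell by 2.67 (SE 0.264) and 3.16 (SE 0.280) in the EWS-OCT4 and OCT4 lines against J1.

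Relatives of Ncam1 and Ncan were divided. Of 20 genes of neural adhesion and polysialylation 11 were tested. In EWS-OCT4 versus OCT4, 3 were higher and 4 lower (27.3% and 36.4%), near the 31.9% and 34.6% of all tested genes. Ntm (1.53, SE 0.248) and Cdh4 (1.19, SE 0.197) rose, and Alcam (-3.48, SE 0.165) and Nrcam (-1.60, SE 0.205) fell. Ncam2, the closest relative of Ncam1, had 4 to 7 counts per line. Against J1, 4 were higher and 5 lower with EWS-OCT4 and 2 and 3 in the OCT4 line, with Cdh4 (1.45, SE 0.200) up in the former and Alcam (4.51, SE 0.184) up in the latter. L1cam, an X-linked axonal adhesion gene, fell by 1.63 (SE 0.125) and 1.16 (SE 0.120). Of the 9 tested genes of neural extracellular matrix, 1 was higher and 4 lower in EWS-OCT4 versus OCT4, 2 and 5 when the fusion line was set against J1, and 3 and 4 in OCT4 versus J1. Acan, which encodes aggrecan, a proteoglycan of the same family as neurocan, fell by 4.26 (SE 0.119) and 3.67 (SE 0.112) in the EWS-OCT4 and OCT4 lines against J1, as Ncan lay far lower in both. Vcan, of that family too, was higher in the EWS-OCT4 line than in the OCT4 line (0.74, SE 0.0866) and in J1 (0.81, SE 0.0866), while Hapln3 rose in the OCT4 line (2.62, SE 0.233). Cspg4 (-2.23, SE 0.306) and Ptprz1 (-2.10, SE 0.159) were lower with the fusion than with OCT4.

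Neural RNA-binding genes, the class of Msi1, had 9 of 19 higher and 5 lower in EWS-OCT4 versus OCT4, where Msi1 lay lower. Msi2, the paralog of Msi1, had 222 ± 33.5 CPM in J1, 124 ± 5.42 with OCT4 and 194 ± 7.81 with EWS-OCT4 (SD, n = 3); it is given for its relation to Msi1, after its values were seen. Elavl3 (1.68, SE 0.214) and Celf4 (1.68, SE 0.102) rose, and Nova2 (-1.90, SE 0.132) and Celf5 (-0.66, SE 0.108) fell. Against J1, 3 were higher and 8 lower with EWS-OCT4 and 3 and 9 in the OCT4 line. Rbfox3, which encodes the neuronal antigen NeuN, fell by 2.18 (SE 0.277) and 2.90 (SE 0.299), Qki rose in the EWS-OCT4 line (0.66, SE 0.0698) and Nova2 in the OCT4 line (1.31, SE 0.126).

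REST, a repressor that keeps neuronal genes silent outside neurons, differed between the lines. Rest had 241 ± 28.4 CPM in J1, 177 ± 11.4 with OCT4 and 321 ± 19.3 with EWS-OCT4 (SD, n = 3), 0.86 (SE 0.0845) higher with the fusion than in the OCT4 line. Of 12 genes of its complex, 7 were higher and 4 lower in that comparison, Hdac1 by 0.86 (SE 0.0643) upward and Rcor3 (-1.20, SE 0.113) downward. Against J1, 7 were higher and 1 lower with EWS-OCT4 and 5 and 7 in the OCT4 line. Rcor1 rose in both, by 1.39 (SE 0.0814) and 2.10 (SE 0.0810), Kdm1a fell in the EWS-OCT4 line (-0.50, SE 0.0609) and Hdac1 in the OCT4 line (-0.50, SE 0.0641). Of 16 tested neuronal genes under REST repression, 6 were higher and 6 lower in EWS-OCT4 versus OCT4 (37.5% each). Of all tested genes 31.9% and 34.6% were. The REST-repressed genes had 6 higher and 7 lower when the fusion line was set against J1, and 6 and 6 in OCT4 versus J1. This division was not kept with a minimum of 5 CPM in 3 libraries, which left 1 higher and 5 lower in EWS-OCT4 versus OCT4 and 5 higher and 1 lower in OCT4 versus J1. Between the stable lines the synaptic vesicle gene Syt4 (4.48, SE 0.355) and Celsr3 (2.67, SE 0.124) rose. Syt4 was low throughout, with 2.44 CPM in the EWS-OCT4 line and 0.103 in the OCT4 line. The glutamate receptor gene Grin1 (-2.22, SE 0.104) and the X-linked Syp (-1.70, SE 0.236) fell, where the 381 X-linked genes of at least 5 CPM had a median of -0.45. Against J1, Unc13a rose (1.42, SE 0.132) and Snap25 fell (-2.66, SE 0.380) in the EWS-OCT4 line, and Grin1 rose (2.99, SE 0.110) and Vgf fell (-3.31, SE 0.284) in the OCT4 line.

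Markers of ES cells and of other lineages that can express these genes were summed to show what moves beside them, and the single markers often went against their sum. The 11 ES cell markers were all above 1 CPM in every line, with summed levels of 4559 to 4924 CPM in J1, 3472 to 3559 with OCT4 and 3842 to 3965 with EWS-OCT4. Pou5f1, whose levels are given above, is part of these sums. Against J1, 2 were called higher and 6 lower in the OCT4 line and 2 and 5 in the EWS-OCT4 line. Nanog (0.96 and 0.88) and Tfcp2l1 (1.55 and 1.51) were the higher ones in both. The 10 trophoblast markers summed to 110 to 135 CPM in J1, 423 to 454 with OCT4 and 139 to 143 with EWS-OCT4, with Tpbpa at 0 in all. Of 9 tested, 7 were higher and 0 lower in the OCT4 line than in J1. In the EWS-OCT4 line 6 were higher and 1 lower than in J1. The 8 primitive endoderm markers summed to 227 to 236, 396 to 431 and 326 to 337 CPM. In OCT4 versus J1, however, only 2 were called higher, Gata6 (2.40) and Col4a1 (2.11), and 3 lower, Sox7 (-1.64), Dab2 (-1.77) and Lama1 (-0.77). In EWS-OCT4 versus J1 also, only 2 were called higher, Sox7 (2.14) and Lama1 (1.19), and 6 lower.

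The 8 neural crest markers summed to 46.8 to 51.2, 30.9 to 34.2 and 107 to 112 CPM in J1, OCT4 and EWS-OCT4. Ngfr, with 82.2 CPM in the EWS-OCT4 line, made up most of the last sum and rose by 2.37 against OCT4 and 1.39 against J1, as did Foxd3 (2.08 and 1.32). The defining crest factor Sox10 fell in both (-1.51 and -2.89). Ets1 fell in both (-0.52 and -0.52), close to the threshold (edgeR, adjusted p = 0.0416 and 0.0428). In EWS-OCT4 versus OCT4 2 of 6 tested were higher and 3 lower. The 8 fibroblast markers summed to 81.6 to 101, 58.6 to 65.2 and 30.1 to 33.1 CPM. Col1a1 fell by 2.40 and 3.47 in the OCT4 and EWS-OCT4 lines against J1, while Twist1 rose in both (1.11 and 1.31) and Pdgfrb rose with OCT4 (1.01). In EWS-OCT4 versus J1 1 of 5 tested was higher and 4 lower, and in OCT4 versus J1 2 and 2.

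The 7 muscle markers summed to 58.3 to 79.2, 64.7 to 72.8 and 34.1 to 36.0 CPM, while the defining genes Myod1 and Myog had 18 and 14 counts at most over a line. Of 4 tested, 3 were higher and 1 lower in OCT4 versus J1 and 1 and 2 in EWS-OCT4 versus J1. The 10 lens and pancreas markers summed to 3.29 to 4.19, 21.4 to 25.2 and 12.0 to 12.4 CPM, of which Cryab alone had 2.71, 19.9 and 11.6, with Ins1 and Gcg at 0 in all lines. The 9 mesendoderm markers summed to 7.71 to 8.46, 18.1 to 20.1 and 6.97 to 9.10 CPM, with Cer1 at 0 in all. In OCT4 versus J1, 3 of 6 tested were higher and 3 lower. The part of these other lineages in the values of the 8 genes was not tested.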

How the data were processed

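Total RNA of 9 libraries was prepared with the CORALL V2 kit, per the labels' protocols. Each library has 1 table of raw counts by gene symbol, deposited by the authors and not normalized. Tools listed in the submitters' processing notes, without roles, are GATK, Salmon, STAR and fastp, and the build is GRCm39. The annotation, the strand setting and the use of molecular identifiers were not stated. Without strand, reads of Map2 and its antisense neighbour Gm10558 cannot be told apart. The antisense genes of Pax6 (Pax6os1) and Ncam1 (Gm11149) were listed at 0.

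Groups and replicate numbers came from the titles. Genes were kept by filterByExpr (minimum count 10, total 15), scaled by TMM (factors 0.958 to 1.03) and fitted for all 9 libraries by glmQLFit (robust) and glmQLFTest of edgeR 4.0.16 under R 4.3.3, with Benjamini-Hochberg adjustment at 0.05. The SE was taken from the fold change and the F statistic, as log2FC over the root of F. In simulated EWS-OCT4 versus OCT4 data with 16338 genes tested, 17.0%, 69.4%, 74.0% and 95.9% of genes changed 1.25-, 1.5-, 2- and 4-fold were called. These shares rest on 47, 49, 50 and 49 genes, and all other genes were left unchanged. In the real comparison 66.5% of tested genes were called, so the shares do not give the sensitivity of the calls above. The 8 genes, the lists and the markers were chosen with earlier results of these data known. Named list genes were up to 2 per direction and list for EWS-OCT4 versus OCT4, and 1 for each comparison with J1, with the largest change among those called, no overlap of the groups and at least 2 CPM in the higher line; nearest genes were the 3 of smallest root mean square distance between centred log2 CPM (prior count 2). All beta-tubulins and PAX genes were named. Some genes that the rule names are not reported here. RefSeq (GRCm38.p6) gave the chromosome of 16063 of the 16562 tested genes; no coordinates on the files' build are given. Alternatives were other scalings, filters, tests (DESeq2 1.42.0, limma-voom 3.58.1), sample sets, a replicate block and each library left out.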

Additional observations from a re-analysis of the deposited data

Results flagged for a closer look

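For 3 of the 8 genes every library of the EWS-OCT4 line lay on one side of all J1 libraries and every library of the OCT4 line on the other. The difference between the log2 ratios against J1, EWS-OCT4 minus OCT4, was 4.52 for Pax6, -1.59 for Map2 and -1.78 for Msi1. It was not tested, because these genes were picked with their values known. Both ratios share the J1 libraries.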

How the results depend on the processing

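Across the 4 other scalings and the libraries left out in turn, none of the 24 log2 ratios of the 8 genes changed sign; the largest shift was 0.23 when a library was left out and 0.082 with another scaling. With unscaled library totals, 3 ratios of EWS-OCT4 versus OCT4 moved by more than the spread between replicates, to -0.24 for Nes, 1.18 for Ncam1 and 0.72 for Tubb3. With a minimum of 5 CPM in 3 libraries, which tests fewer genes, 53 other neural genes were lower in EWS-OCT4 versus OCT4 (81 before) and 47 higher in OCT4 versus J1 (76 before), and 29 counts of single lists moved by more than 1.5 times, such as progenitor transcription factors higher against J1 (from 13 to 6 in the EWS-OCT4 line and from 16 to 5 in the OCT4 line), retinoid genes lower in EWS-OCT4 versus OCT4 (from 11 to 6) and Notch genes lower in EWS-OCT4 versus J1 (from 8 to 4). Outside that filter 6 list counts moved so far: lower PAX genes in EWS-OCT4 versus OCT4 without EWS-OCT4 replicate 2 (from 2 to 4), higher PAX genes in OCT4 versus J1 without OCT4 replicate 2 (from 2 to 1), lower REST complex genes in EWS-OCT4 versus J1 without J1 replicate 1 (from 1 to 3) or with upper-quartile scaling (from 1 to 2), and, with no filter, lower beta-tubulins in EWS-OCT4 versus J1 (from 1 to 2) and higher PAX genes there, where 1 appeared. Other counts over all genes and over the other neural genes stayed within 1.5 times in every alternative. The replicate numbers are not shown to pair the libraries throughout. Same-numbered libraries correlated between -0.036 and 0.28 in their deviations, and in 5 of 9 cases a library correlated best with its own number. The replicate 1 libraries did so in every comparison, at 0.28 (EWS-OCT4 and OCT4), 0.19 (EWS-OCT4 and J1) and 0.22 (OCT4 and J1). Whether they share a batch was not tested. With the replicate number as a block, 65 other neural genes were higher and 81 lower in EWS-OCT4 versus OCT4 (64 and 81 without). Among the list genes named by the rule on size and reported here, the call of Ebf1 was lost as given above. Depth limits Pax6 in the OCT4 line most, with 31 counts.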

Other observations

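Notch pathway and retinoid genes, which act on neural progenitors, leaned downward in the EWS-OCT4 line against the OCT4 line. By the edgeR test used above, 5 of 18 tested Notch pathway genes were higher and 11 lower. The glycosyltransferase gene Lfng (1.94, log2 fold change, SE 0.175) and the ligand gene Jag2 (0.93, SE 0.0982) rose, and the Notch effectors Hey2 (-1.45, SE 0.237) and Hes1 (-1.24, SE 0.0910) fell. Hes1, which holds back proneural genes, had risen in the OCT4 line against J1 by 1.32 (SE 0.0910), where 7 genes of the list were higher and 5 lower and Dll3 fell by 1.71 (SE 0.225). In EWS-OCT4 versus J1, 4 were higher and 8 lower, with Lfng at 1.57 (SE 0.168) and Mfng at -1.27 (SE 0.204).

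Of 14 tested retinoid genes, 2 were higher and 11 lower in EWS-OCT4 versus OCT4, with a median log2 fold change of -1.34. Aldh1a2 (1.64, SE 0.279), an enzyme that makes retinoic acid, and the receptor gene Rarg (0.71, SE 0.106) rose, and Aldh1a3 (-2.41, SE 0.225), another such enzyme, fell. Against J1, 7 were higher and 4 lower in the OCT4 line, with Aldh1a3 at 3.31 (SE 0.247) and Aldh1a2 at -1.72 (SE 0.276). In the EWS-OCT4 line 3 were higher and 6 lower than in J1, with Crabp1 at -2.19 (SE 0.0835).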
